A study of Rattus norvegicus with 10 samples.

Results

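The genes followed were 10 of the Wnt receptor family: the Frizzled receptor genes Fzd1, Fzd2, Fzd3, Fzd4, Fzd6, Fzd7 and Fzd8, and Sfrp1, Sfrp2 and Frzb, which encode secreted proteins with a Frizzled-like Wnt-binding domain. Members were taken as all probe sets (groups of short probes on the array that read 1 transcript) whose platform annotation gave 1 of these symbols and no other. This rule found 14 of the 31042 probe sets tested, for 9 of the 10 genes listed and of 14217 genes with a probe set of their own; Fzd7 had none and is not analysed here. Where a gene had several probe sets, the brightest over all arrays stood for the gene, and the others are given beside it.

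The arrays measured total RNA of rat lens explants, the epithelial sheets of lenses of 3-day-old pups, cultured with 6 explants per dish. All explants were first kept overnight at 5 ng/mL FGF2, a fibroblast growth factor, and those arrays are the 0 hr group. The other groups were then given 100 ng/mL FGF2, a dose at which explant cells turn into lens fiber cells, for 2 or 4 hr (the 'early' phase) or for 12 or 24 hr (the 'late' phase). Each of the 5 time points had 2 arrays, made from different cultures, 10 arrays in all. No array held explants left at 5 ng/mL for as long, so the effect of the dose and that of time in culture cannot be told apart.

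Frizzled receptors span the membrane and bind Wnt ligands through a cysteine-rich domain outside the cell. With the co-receptors Lrp5 or Lrp6 they recruit Dishevelled and keep beta-catenin from being destroyed, and with other partners they act in planar cell polarity, the alignment of cells within a sheet. The secreted Frizzled-related proteins carry a like domain without a membrane anchor and can hold Wnts away from their receptors. In the lens, Wnt signaling is known both for maintenance of the epithelium and for the orderly alignment of elongating fibers.

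Values are log2 of the normalized array intensity, which has no physical unit. Array medians lay between 97.99 and 100.3 intensity units, and the SD of the difference between the 2 arrays of a time point was 0.16, 0.29, 0.30, 0.17 and 0.21 at 0, 2, 4, 12 and 24 hr. The 5′ over 3′ log2 ratio of the Actb control probe sets, a sign of RNA length, ran between -2.13 and -1.12, lowest on replicate 2 at 2 and 4 hr and highest at 0 hr. The numbering of arrays in the study's supplement sets the 2 and 4 hr arrays apart from those of 12 and 24 hr, and the 0 hr arrays from both, so that array series and time can be told apart only for 4 hr against 2 hr and for 24 hr against 12 hr. Summed intensities of markers ran between 64282 and 77880 for lens epithelium (10 genes) and between 57495 and 85006 for lens fibers (21 genes). They ran from 9714 to 14392 for fibroblasts and mesenchyme (10 genes), 1292 to 3586 for red cells (2 genes) and 961 to 2108 for endothelium (7 genes). For macrophages (10 genes) they were 383 to 772, for retina and neurons (8 genes) 380 to 550, and for pigment cells (7 genes) 230 to 257. The brightest markers weigh most in such sums. These were Cryaa and Cryab for lens epithelium (mean log2 values 14.54 and 14.23) and Pdgfra for fibroblasts and mesenchyme (13.27). The other fibroblast and mesenchyme markers lay between 4.16 (Lum) and 10.42 (Col1a2), with Col3a1 at 5.80 and Col1a1 at 6.15. The sum of that list thus mostly reads Pdgfra and does not measure an amount of fibroblasts.

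Changes from 0 hr were frequent in the family and differed between members. A probe set is called where limma's adjusted p, corrected over all 31042 probe sets, was under 0.05. At 2 hr 5 of the 14 probe sets were called, of 17.5% over the whole array, with 4 higher (8.61% over the array) and 1 lower (8.88%). At 4 hr 8 were called (23.8% over the array), 4 higher and 4 lower (11.9% of the array each way). At 12 hr 7 were called (19.0%), 1 higher (8.94%) and 6 lower (10%, or 3111 probe sets). Those 6 were probe sets of only 3 genes, Fzd4, Sfrp1 and Sfrp2. At 24 hr 5 were called (20.2%), 1 higher (9.29%) and 4 lower (10.9%). Counted by gene on the brightest probe set, 4, 4, 1 and 1 of 9 genes were higher at 2, 4, 12 and 24 hr. By the same count 1, 2, 3 and 3 of 9 genes were lower. Over the 4 times, 11 of 14 probe sets and 8 of 9 genes were called at least once, against 40.8% of all probe sets. The median log2 change of the 14 probe sets was 0.28, 0.10, -0.33 and -0.21 at 2, 4, 12 and 24 hr, beside -0.0030, -0.021, 0.018 and 0.026 over all probe sets. The count at 2 hr was 2 without either replicate of 0 hr, 3 without either replicate of 12 hr and 8 without either replicate of 4 hr.

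**Figure D1:**
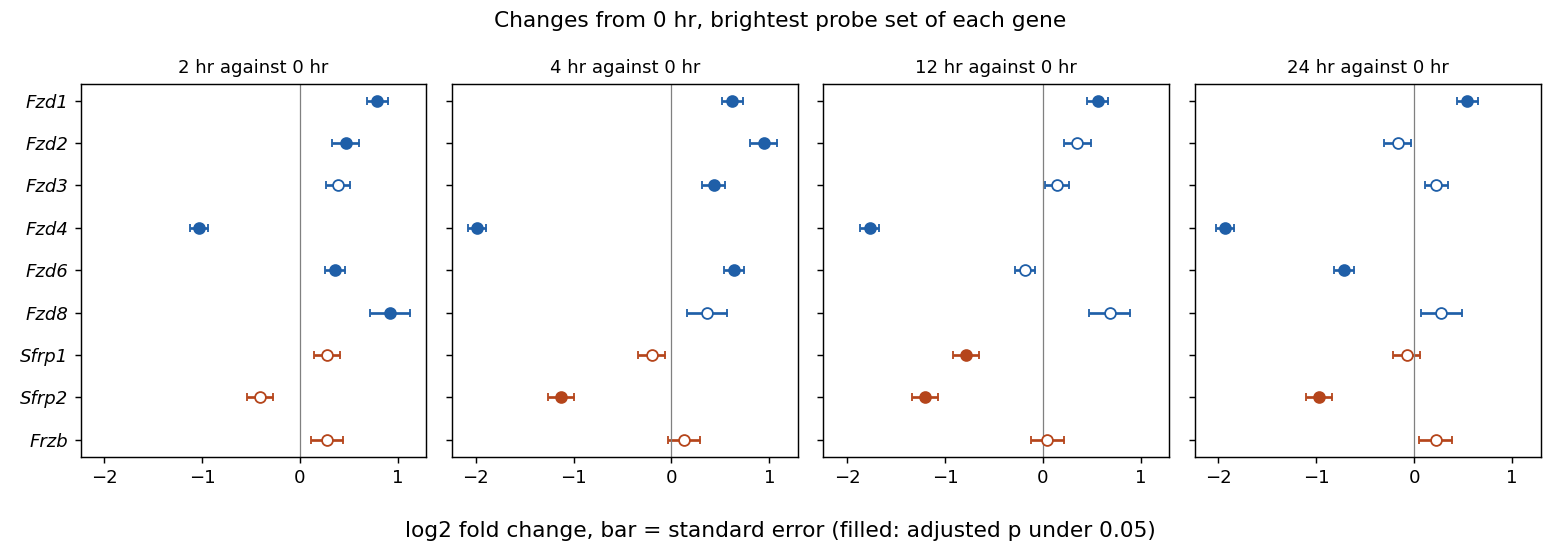
Log2 fold change against 0 hr (x axis) of the brightest probe set of each of the 9 genes (rows) at 2, 4, 12 and 24 hr, with bars of 1 standard error; receptors are blue, secreted proteins red-brown, and filled points passed an adjusted p under 0.05. Fzd4 lay between -1.03 and -1.99 at the 4 times, Fzd1 between 0.54 and 0.79, and Sfrp2 between -0.41 and -1.20.

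The start regions of 3 of these genes are shown because their signals moved most steadily: Fzd4 and Sfrp2, which were called lower at 4, 12 and 24 hr, and Fzd1, which was called higher at all 4 times. Each run is the 250 bases before the annotated start, from RefSeq on build GRCr8, 5′ to 3′ on the gene's strand, at chr1:152692257-152692506 (Fzd4), chr2:171387286-171387535 (Sfrp2) and chr4:30264824-30265073 (Fzd1). Capitals mark GC boxes, the letters GGGCGG on either strand, a motif known to be bound by Sp-family factors.
Fzd4: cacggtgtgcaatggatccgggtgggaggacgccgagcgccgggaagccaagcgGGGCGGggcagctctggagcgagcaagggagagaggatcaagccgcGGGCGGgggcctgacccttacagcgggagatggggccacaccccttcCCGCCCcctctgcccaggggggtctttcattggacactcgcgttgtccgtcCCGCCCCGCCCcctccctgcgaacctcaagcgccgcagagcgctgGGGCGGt
Sfrp2: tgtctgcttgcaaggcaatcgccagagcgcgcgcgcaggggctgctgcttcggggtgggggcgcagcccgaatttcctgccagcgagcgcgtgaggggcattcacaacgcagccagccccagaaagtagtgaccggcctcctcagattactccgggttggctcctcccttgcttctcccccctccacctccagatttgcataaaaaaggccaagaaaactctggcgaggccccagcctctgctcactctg
Fzd1: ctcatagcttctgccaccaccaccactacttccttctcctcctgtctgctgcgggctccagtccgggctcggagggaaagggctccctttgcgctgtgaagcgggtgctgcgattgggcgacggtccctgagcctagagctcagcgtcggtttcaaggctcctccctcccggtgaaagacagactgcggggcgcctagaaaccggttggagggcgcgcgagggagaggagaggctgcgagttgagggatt

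The Fzd4 window held 6 GC boxes, 2 of which share 1 base, and the Sfrp2 and Fzd1 windows held none; 30.5% of 33469 rat promoter windows of this length held at least 1. The GC content was 71.6% for Fzd4, 62.4% for Sfrp2 and 63.6% for Fzd1, beside a median of 51.2% over all windows. The letters CTTTGAT (the TCF/LEF motif of beta-catenin targets), TGANTCA (AP-1), CCGGAAG (ETS) and TGACGTCA (the cAMP response element), searched on both strands, were in none of the 3 windows, and in 3.15%, 6.34%, 7.27% and 1.59% of all windows. Windows of 6 of the 10 genes were matched (Fzd1, Fzd4, Fzd7, Fzd8, Sfrp2 and Frzb), and among them only that of Fzd4 held a GC box.

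Fzd4, the receptor of Norrin in the retinal vasculature, fell furthest. Its log2 values (probe set 1376997_at) were 10.20 and 10.22 at 0 hr, 9.10 and 9.26 at 2 hr, 8.21 and 8.24 at 4 hr, 8.49 and 8.39 at 12 hr, and 8.33 and 8.22 at 24 hr. Both arrays of each later time lay below both arrays of 0 hr. Fzd4 was down-regulated 2.05-fold at 2 hr (log2 fold change -1.03, SE 0.092, limma adjusted p = 0.0003) and 3.97-fold at 4 hr (log2 fold change -1.99, adjusted p = 1.45e-05). It was still 3.41-fold lower at 12 hr (log2 fold change -1.77, limma adjusted p = 2.26e-05) and 3.83-fold lower at 24 hr (log2 fold change -1.94, adjusted p = 1.36e-05). The call was kept at all 4 times under every alternative run, and leaving out any 1 array moved the change at 4 hr only between -2.00 and -1.97. In the order of its levels 0 hr stood above 2 hr and 2 hr above 12 hr, both called, while 12, 24 and 4 hr were not separated.

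The other Fzd4 probe set, 1369468_at, was among the dimmest 1 in 3 probe sets of the array (mean log2 value under 5.44) and was not called against 0 hr at any time. Its log2 values were 4.58 and 4.52 at 0 hr, 4.67 and 4.86 at 2 hr, 4.47 and 4.22 at 4 hr, 4.28 and 3.86 at 12 hr, and 4.25 and 4.15 at 24 hr. Its log2 fold change was 0.21, -0.21, -0.48 and -0.35 at the 4 times (SE 0.15). At 12 hr it passed in 7 of the alternatives, among them those without 12 hr replicate 1 (-0.70) or either 4 hr array (-0.48), and it was -0.27 without 12 hr replicate 2. At 24 hr it passed in a fit of the 0 and 24 hr arrays alone. The calls of Fzd4 against 0 hr therefore rest on 1 probe set.

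Fzd4 is known as a vascular gene, so that its levels are set beside markers of endothelium. Of the 7 endothelium genes measured, 2, 4, 3 and 4 were lower at 2, 4, 12 and 24 hr, beside 8.88%, 11.9%, 10% and 10.9% of all probe sets, and 1 was higher, Kdr at 12 hr (log2 fold change 1.21). Their summed intensity was 1673 to 2108 at 0 hr, 1822 to 1880 at 2 hr, 1302 to 1506 at 4 hr, 1133 to 1237 at 12 hr and 961 to 1074 at 24 hr. Vwf, the von Willebrand factor gene and the only marker called lower at all 4 times, had log2 values of 7.20 on both arrays at 0 hr, 6.91 and 6.56 at 2 hr, 5.90 and 6.11 at 4 hr, 6.11 and 5.88 at 12 hr, and 6.36 and 6.31 at 24 hr. Like Fzd4, its later arrays all lay below those of 0 hr (log2 fold change -0.46, -1.19, -1.21 and -0.86, SE 0.14). At 4 hr Cldn5, a tight junction gene of endothelium, had log2 values of 6.40 and 5.56, against 7.53 and 7.84 at 0 hr. Emcn, an endothelial surface sialomucin, had 6.94 and 6.20 at 4 hr, against 7.87 and 8.14 at 0 hr. Tek, the receptor of angiopoietins, was called only at the late times, with a log2 fold change of -1.63 at 12 hr and -1.57 at 24 hr. Tek had the highest mean level of the 7 (log2 value 9.25) and weighed most in the summed intensity at 0, 2 and 4 hr. At 12 and 24 hr Kdr weighed most (mean log2 values 9.23 and 8.69), with its change at 24 hr (0.67) not called. At 2 hr Tek changed by 0.44, not called, where the median of the list was -0.46. The defining markers Pecam1 and Tie1 lay among the dimmest 1 in 3 probe sets by their mean level. In bulk RNA, fewer cells of a type and less RNA per cell cannot be told apart, and the part of endothelial cells in the fall of Fzd4 was not tested.

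The partners of Fzd4 in Norrin signaling moved in different directions. Ndp, which encodes Norrin itself, had log2 values of 7.29 and 7.003 at 0 hr, 8.11 and 8.39 at 2 hr, 8.87 and 9.10 at 4 hr, 9.63 and 9.78 at 12 hr, and 9.07 and 8.78 at 24 hr. It was called higher at all 4 times, with log2 fold changes of 1.10, 1.84, 2.56 and 1.78 (SE 0.16). Tspan12, a tetraspanin that aids Norrin signaling through Fzd4, fell at 2 and 4 hr (log2 fold change -0.44 and -0.67, SE 0.10) and was not called at 12 or 24 hr (0.11 and 0.26). Of the co-receptors, Lrp5 was called only at 24 hr (log2 fold change 0.39, SE 0.11), and Lrp6 at no time (-0.04, -0.10, 0.07 and 0.20). The receptor and its ligand thus had opposite signs at each of the 4 times, on comparisons that share the 0 hr arrays.

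**Figure D2:**
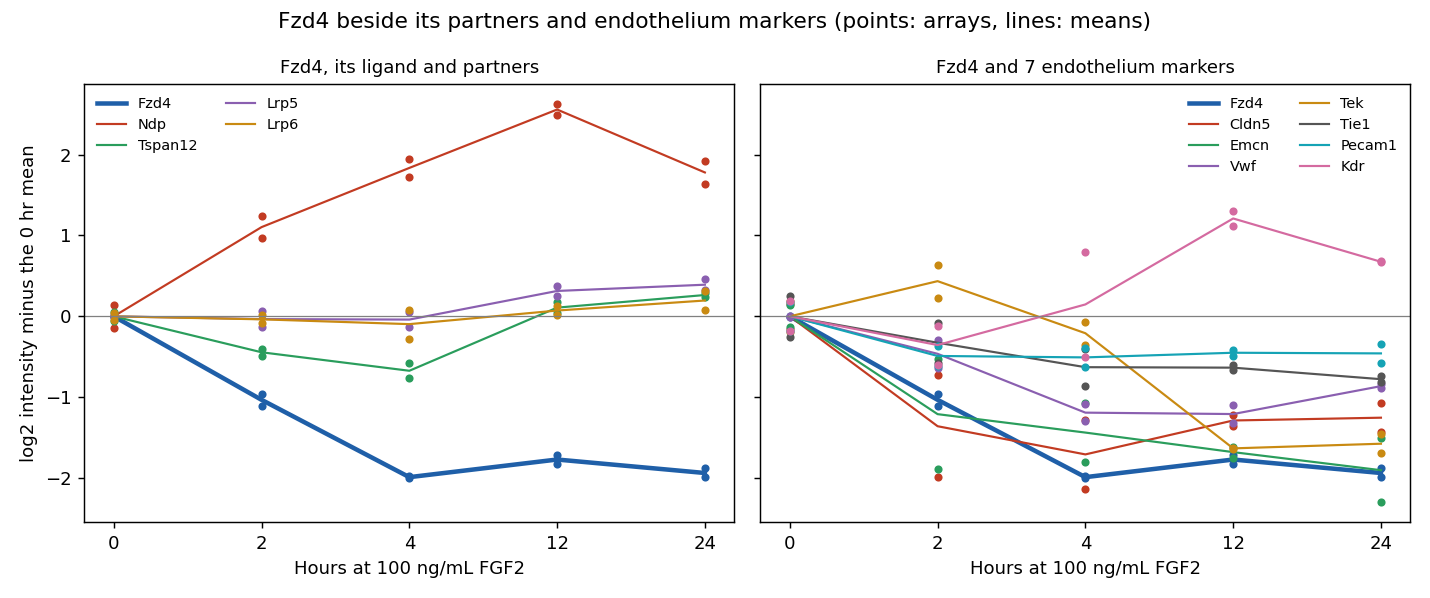
Log2 intensity minus the gene's mean at 0 hr (y axis) against hours at 100 ng/mL FGF2 (x axis, evenly spaced), with points for arrays and lines for means. Left, Fzd4 with Ndp, Tspan12, Lrp5 and Lrp6; right, Fzd4 with 7 endothelium markers. Ndp peaked 2.56 above its 0 hr mean at 12 hr, where Fzd4 lay 1.77 below its own, and of the endothelium markers only Kdr lay above its 0 hr mean at 12 and 24 hr.

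Fzd1 was the brightest receptor probe set and rose at every time. Fzd1 is a receptor that signals through beta-catenin. Its log2 values (1370256_at) were 11.42 and 11.39 at 0 hr, 12.15 and 12.25 at 2 hr, 11.88 and 12.17 at 4 hr, 12.03 and 11.91 at 12 hr, and 11.95 and 11.95 at 24 hr. All 8 later arrays lay above both 0 hr arrays, and the later times were not separated from each other. The up-regulation was 1.73-fold at 2 hr (log2 fold change 0.79, SE 0.11, limma adjusted p = 0.0021), 1.54-fold at 4 hr (0.62, adjusted p = 0.0039), and 1.48-fold and 1.46-fold at 12 and 24 hr (0.56 and 0.54). The call at 12 hr was lost without 0 hr replicate 2 (log2 fold change 0.54) or 12 hr replicate 1 (0.50), and that at 24 hr without 0 hr replicate 1 (0.56), 0 hr replicate 2 (0.53) or 24 hr replicate 2 (0.54).

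Fzd2 and Fzd6 rose early and were lower again late. Fzd2, known as a receptor of Wnt5a, had log2 values (1398304_at) of 9.10 and 9.23 at 0 hr, 9.77 and 9.49 at 2 hr, 9.96 and 10.24 at 4 hr, 9.63 and 9.40 at 12 hr, and 9.02 and 8.97 at 24 hr. It was 1.92-fold higher at 4 hr (log2 fold change 0.94, SE 0.14, limma adjusted p = 0.0015), a call kept without any 1 array. Its increase at 2 hr was called in the fit of all arrays (log2 fold change 0.47). That call was lost without 0 hr replicate 1 (0.40), 0 hr replicate 2 (0.53), 2 hr replicate 1 (0.33), or any 1 of the 12 and 24 hr arrays (0.47), in a fit of the 0 and 2 hr arrays alone, and after quantile normalization (0.46). At 12 and 24 hr the log2 fold change was 0.35 and -0.17, neither called. The change at 12 hr passed in a fit of the 0 and 12 hr arrays alone, with array quality weights, and without all arrays of 2 and 4 hr.

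Fzd6, a receptor of planar cell polarity known in mice for the orientation of hairs, had the clearest peak. Its log2 values (1388994_at) were 9.81 and 9.82 at 0 hr, 10.21 and 10.13 at 2 hr, 10.52 and 10.39 at 4 hr, 9.60 and 9.66 at 12 hr, and 9.21 and 8.97 at 24 hr. The 4 early arrays lay above, and the 4 late arrays below, both arrays of 0 hr. Fzd6 was 1.56-fold higher at 4 hr (log2 fold change 0.64, SE 0.10, limma adjusted p = 0.0025) and 1.65-fold lower at 24 hr (log2 fold change -0.72, adjusted p = 0.0017), and both calls were kept without any 1 array. At 12 hr it was not called (-0.18). The smaller increase at 2 hr (log2 fold change 0.36) was no longer called without 0 hr replicate 1 (0.35) or replicate 2 (0.36), 2 hr replicate 1 (0.32) or replicate 2 (0.40), or either 12 hr array (0.36), nor in a fit of the 0 and 2 hr arrays alone or with array quality weights.

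Fzd3 and Fzd8 were each called at 1 time only, and the error was wider for Fzd8. Fzd3, which acts with Fzd6 in planar polarity and in axon guidance in mice, had log2 values (1385636_at) of 6.12 on both arrays at 0 hr, 6.54 and 6.48 at 2 hr, 6.70 and 6.41 at 4 hr, 6.21 and 6.32 at 12 hr, and 6.23 and 6.47 at 24 hr. It was called only at 4 hr (log2 fold change 0.43, SE 0.12). That call was lost without 4 hr replicate 1 (0.29), either 0 hr array (0.43) or either 12 hr array (0.43), and in a fit of the 0 and 4 hr arrays alone. The change of Fzd3 at 2 hr (0.39) was not called, but passed without the dimmest 1 in 3 probe sets or without either 4 hr array (0.39). Fzd8, whose Wnt-binding domain in the mouse was the one crystallised with a Wnt, had values (1383721_at) of 7.40 and 7.24 at 0 hr, 7.88 and 8.60 at 2 hr, 7.67 and 7.70 at 4 hr, 7.84 and 8.16 at 12 hr, and 7.57 and 7.62 at 24 hr. All later arrays lay above both 0 hr arrays, and the 2 arrays of 2 hr were the farthest apart. Fzd8 was called at 2 hr only, 1.89-fold higher (log2 fold change 0.92, SE 0.21, limma adjusted p = 0.018). At 12 hr its change of 0.68 was not called, but was in 9 of the alternatives. Its change at 2 hr was 0.56 without 2 hr replicate 2, and the call was lost without 0 hr replicate 1 (1.00) or 0 hr replicate 2 (0.84) and in a fit of the 0 and 2 hr arrays alone.

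**Figure D3:**
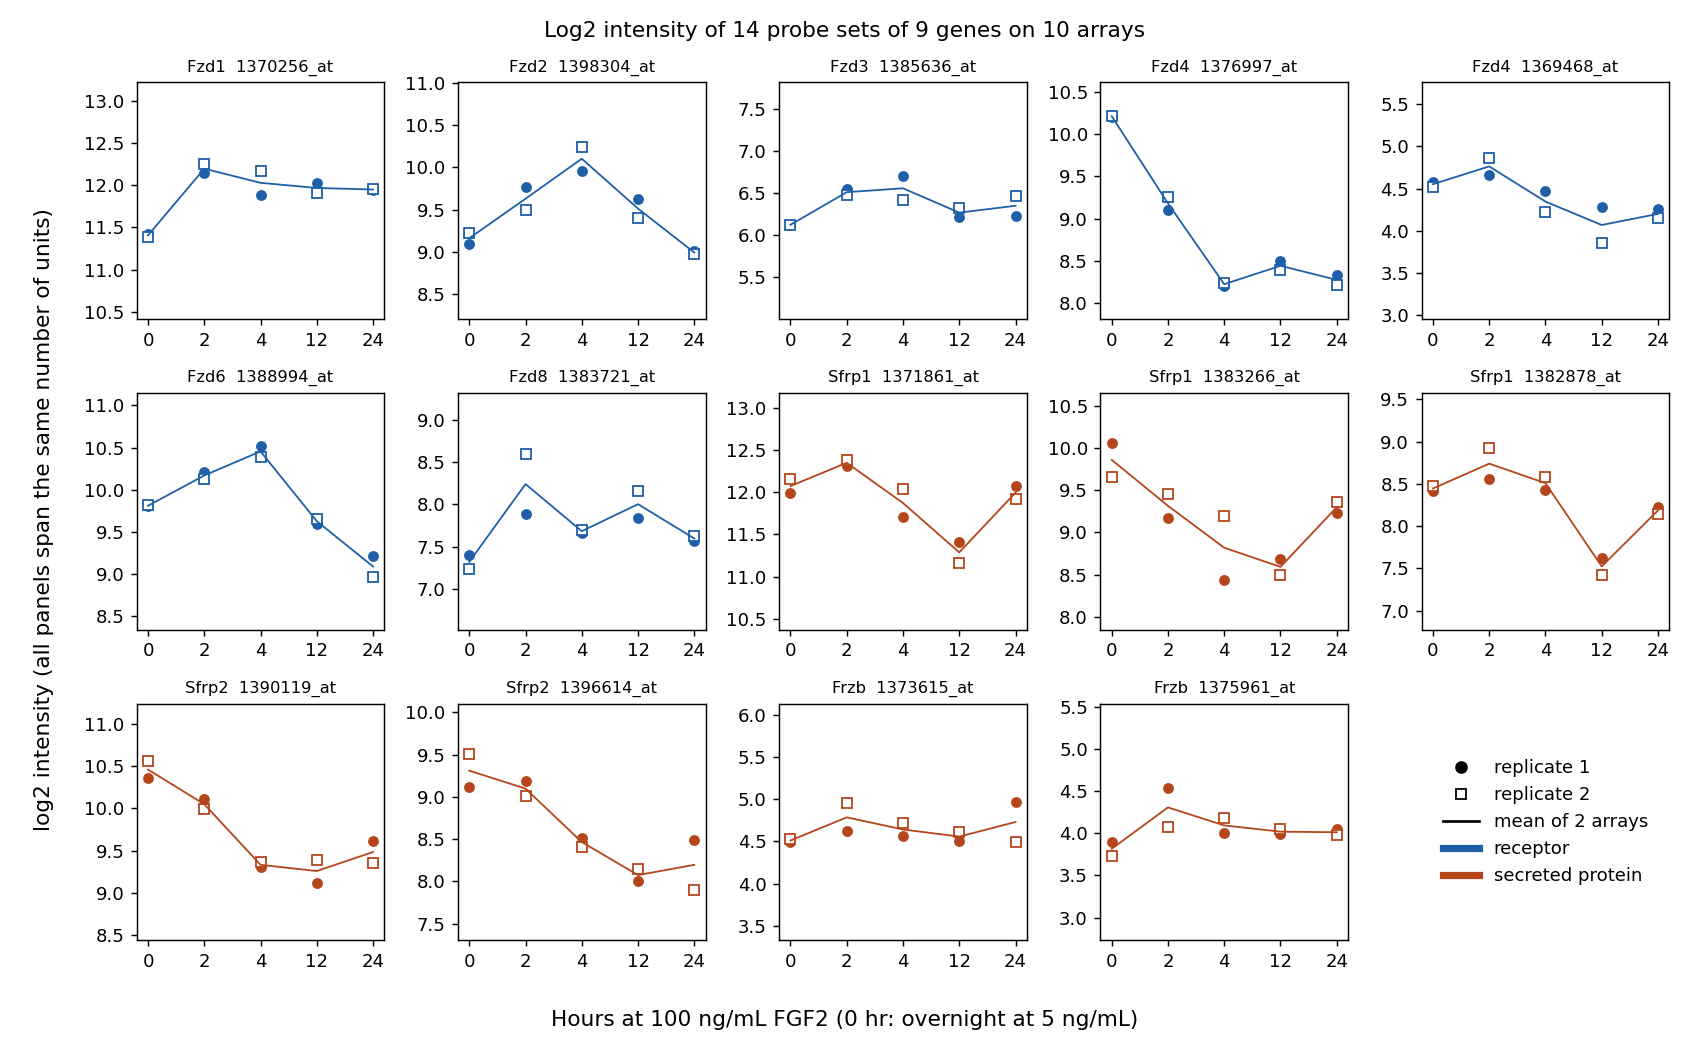
Log2 intensity (y axis, all panels spanning the same number of units) against hours at 100 ng/mL FGF2 (x axis, evenly spaced) for the 14 probe sets; filled circles are replicate 1, open squares replicate 2, and lines join the means of 2 arrays. Fzd2 and Fzd6 peaked at 4 hr, at means of 10.10 and 10.45, Sfrp1 1371861_at was lowest at 12 hr at a mean of 11.29, and Fzd4 1376997_at had means between 8.22 and 8.44 at 4, 12 and 24 hr.

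Of the secreted proteins, Sfrp2 fell and did not return within 24 hr. Its log2 values (1390119_at) were 10.36 and 10.56 at 0 hr, 10.11 and 9.99 at 2 hr, 9.30 and 9.36 at 4 hr, 9.12 and 9.39 at 12 hr, and 9.61 and 9.35 at 24 hr. Every later array lay below both 0 hr arrays. Sfrp2 was not called at 2 hr (log2 fold change -0.41), but passed there after quantile normalization (-0.43) and with a trended prior for the variance (-0.41). It was 2.19-fold lower at 4 hr (log2 fold change -1.13, SE 0.13, limma adjusted p = 0.0005), 2.30-fold lower at 12 hr (-1.20, adjusted p = 0.0005) and 1.97-fold lower at 24 hr (-0.98, adjusted p = 0.0012). These 3 calls were kept without any 1 array. The other Sfrp2 probe set, 1396614_at, had values of 9.11 and 9.51 at 0 hr, 9.18 and 9.01 at 2 hr, 8.52 and 8.41 at 4 hr, 8.0 and 8.15 at 12 hr, and 8.49 and 7.90 at 24 hr. It was called lower at the same 3 times (log2 fold change -0.84, -1.24 and -1.11, SE 0.20), with the call at 4 hr lost without 0 hr replicate 2 (-0.65) or 4 hr replicate 2 (-0.79).

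Sfrp1, the brightest of the secreted proteins, dipped at 12 hr. Its log2 values (1371861_at) were 11.99 and 12.15 at 0 hr, 12.31 and 12.38 at 2 hr, 11.71 and 12.03 at 4 hr, 11.41 and 11.16 at 12 hr, and 12.07 and 11.92 at 24 hr. The arrays of 12 hr lay below all others, and those of 24 hr overlapped those of 0 hr. It was called only at 12 hr, 1.72-fold lower (log2 fold change -0.79, SE 0.14, limma adjusted p = 0.0043). A further probe set, 1382878_at, had 8.42 and 8.47 at 0 hr, 8.56 and 8.93 at 2 hr, 8.43 and 8.59 at 4 hr, 7.62 and 7.43 at 12 hr, and 8.23 and 8.15 at 24 hr, and was likewise called only at 12 hr (log2 fold change -0.92, SE 0.13). The remaining probe set, 1383266_at, took another course, with 10.06 and 9.66 at 0 hr, 9.18 and 9.45 at 2 hr, 8.44 and 9.20 at 4 hr, 8.69 and 8.50 at 12 hr, and 9.23 and 9.37 at 24 hr. It was called lower at 4 hr (log2 fold change -1.04, SE 0.24) and at 12 hr (-1.27). At 2 hr its change was -0.54, beside 0.28 and 0.29 on the other Sfrp1 probe sets, and at 24 hr -0.56, beside -0.08 and -0.26. Neither was called, but that at 2 hr passed without either 4 hr array (-0.54) and that at 24 hr passed in 5 of the alternatives, among them those without either 4 hr array (-0.56). Its call at 4 hr was lost in a fit of the 0 and 4 hr arrays alone and without 0 hr replicate 1 (-0.84), and its change there was -0.66 without 4 hr replicate 1, and its call at 12 hr was lost without 0 hr replicate 1 (-1.07) or 12 hr replicate 2 (-1.17).

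Frzb, which encodes the secreted Frizzled-related protein also called Sfrp3, was dim on both probe sets and was called at no time. Its log2 values lay between 4.49 and 4.97 on 1373615_at and between 3.73 and 4.53 on 1375961_at, among the dimmest 1 in 3 probe sets. The change of 1375961_at at 2 hr (log2 fold change 0.49, SE 0.15) came nearest to a call, and passed without 2 hr replicate 2 (0.72) but was 0.26 without 2 hr replicate 1. It also passed without either 4 hr array (0.49) and under median centring, quantile normalization, array quality weights or a trended prior for the variance; the mean of both probe sets also passed (0.38). The 95% interval of its change at 24 hr was -0.16 to 0.60 on the brighter probe set, a range that holds a small fall as well as a rise.

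Within the phases, few members were called from 1 time to the next. Their shares, 14.3% early and 21.4% late, were larger than those over the array. Between 4 hr and 2 hr 2 of 14 probe sets were called (3.73% over the array), both lower (1.50% over the array). Fzd4 had 8.21 and 8.24 at 4 hr, against 9.10 and 9.26 at 2 hr (log2 difference -0.96, SE 0.092, limma adjusted p = 0.0016). Sfrp2 had 9.30 and 9.36 at 4 hr, against 10.11 and 9.99 at 2 hr (log2 difference -0.72, SE 0.13, limma adjusted p = 0.021). The count was 1 without 2 hr replicate 2 or 4 hr replicate 1 and 4 without 4 hr replicate 2, and the call of Sfrp2 was lost without 2 hr replicate 1 (-0.66), 2 hr replicate 2 (-0.78) or 4 hr replicate 1 (-0.69), with array quality weights, and for the mean of both probe sets (-0.68). In a fit of these 4 arrays alone neither was called, with 12 of all probe sets called.

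Between 24 hr and 12 hr 3 of 14 probe sets were called (4.34% over the array), 2 higher (2.22%) and 1 lower (2.12%). Sfrp1 had 12.07 and 11.92 at 24 hr, against 11.41 and 11.16 at 12 hr (log2 difference 0.71, SE 0.14, limma adjusted p = 0.024), and its probe set 1382878_at was also called (0.66). Fzd6 had 9.21 and 8.97 at 24 hr, against 9.60 and 9.66 at 12 hr (log2 difference -0.54, SE 0.10, limma adjusted p = 0.025). The third Sfrp1 probe set, 1383266_at, differed by as much (0.71) with a wider error (SE 0.24) and was not called. When 1 of the 12 hr arrays or 24 hr replicate 2 was left out, the count was 0, and with 1 of the 0 hr arrays or 24 hr replicate 1 left out it was 1. The difference of Sfrp1 then lay between 0.59 and 0.83 and lost its call without any 1 of the 12 and 24 hr arrays. That of Fzd6 lay between -0.66 and -0.42 and lost its call without any 1 of the 0 and 12 hr arrays or 24 hr replicate 2.

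The late phase, taken as the mean of 12 and 24 hr, was set against the early phase, the mean of 2 and 4 hr. Of the 14 probe sets, 8 were called (39.2% over the array), all of them lower in the late phase (19.3% over the array), with a median log2 difference of -0.33 beside 0.027 over all probe sets. Fzd6 differed most, with a mean of 9.36 in the late phase, against 10.31 in the early phase (log2 difference -0.95, SE 0.073, limma adjusted p = 2.81e-05), and its 4 late arrays lay below its 4 early ones. Fzd2 followed with 9.25 late, against 9.87 early (-0.61, SE 0.097), and Sfrp1 with 11.64 late, against 12.11 early (-0.47, SE 0.096). Fzd4 (-0.34) and Sfrp2 (-0.32) were also lower, and so were Fzd4 1369468_at (-0.42), Sfrp1 1382878_at (-0.77) and Sfrp2 1396614_at (-0.65). Against 4 hr alone, no call was made at 12 or 24 hr for Fzd4 (0.22 and 0.05) or Sfrp2 (-0.07 and 0.15). The same held for Sfrp2 1396614_at (-0.39 and -0.27). Sfrp1 was lower than at 4 hr only at 12 hr (-0.58), and differed by 0.12 at 24 hr, not called. The third Sfrp1 probe set, 1383266_at, differed by -0.12 and was not called, and was 0.068 without 4 hr replicate 2. The call of Sfrp2 was lost without 2 hr replicate 1 (-0.29), 4 hr replicate 2 (-0.30), 12 hr replicate 1 (-0.25) or 24 hr replicate 2 (-0.25), and with array quality weights. Of the 10 fibroblast and mesenchyme markers, 5 were lower in the same comparison and none higher. Their summed intensity was 9714 to 11602 at 24 hr and between 12326 and 14392 at the other times. Pdgfra, the brightest of them (mean log2 value 13.27, with Col1a2 next at 10.42), weighs most in this sum. It was called at no time against 0 hr, so the sum mostly reads this gene. Of the 10 lens epithelium markers 4 were lower and 1 higher late than early. Their summed intensity was 64282 to 65109 at 24 hr and 67983 to 68089 at 12 hr, against 72475 to 77880 at 2 hr and 73908 to 74290 at 4 hr. Cryaa and Cryab, which weigh most in this sum, were called at no time against 0 hr. The paper counts alpha-crystallin expression among the early features of fiber cells, so the sum does not read epithelium alone. Of the 21 lens fiber markers 6 were higher and 2 lower late than early. Among the 7 endothelium markers 1 was higher and 1 lower. Both red cell markers were lower late (median log2 difference -0.55). The part of these cells in the differences was not tested.

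**Figure D4:**
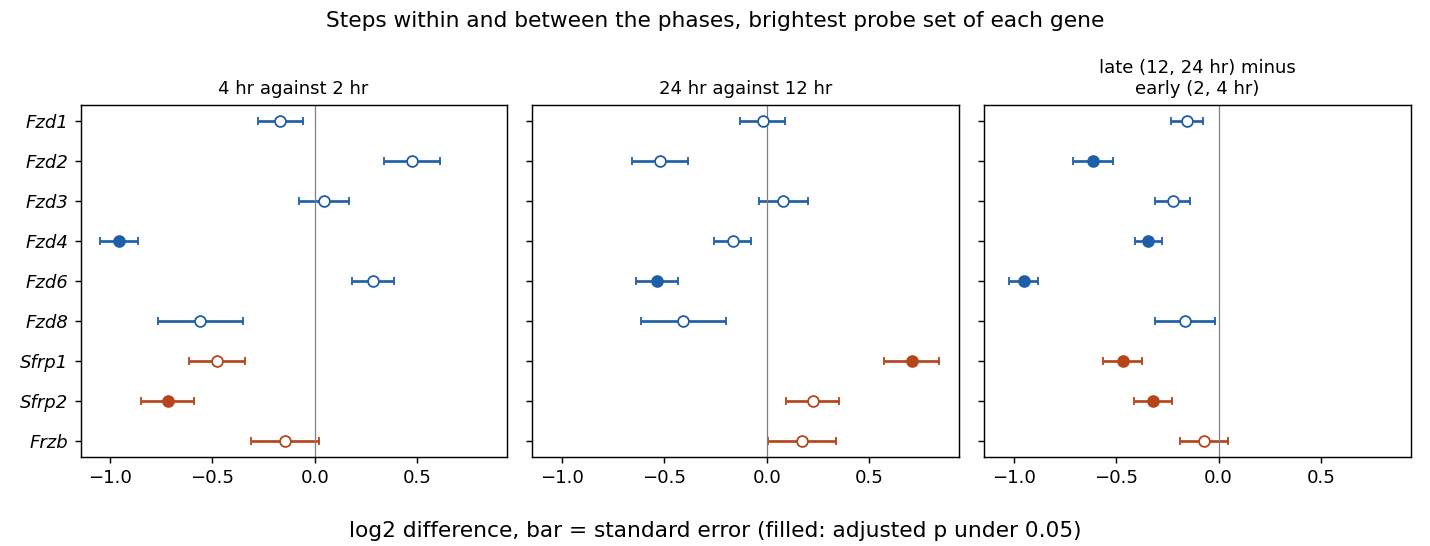
Log2 difference (x axis) with bars of 1 standard error for the 9 genes (rows, brightest probe set) between 4 and 2 hr, between 24 and 12 hr, and between the late and the early phase; filled points passed an adjusted p under 0.05, receptors are blue and secreted proteins red-brown. In the right panel all points lie below 0, from -0.95 for Fzd6 to -0.07 for Frzb.

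Pairs of times across the phases complete the order of levels. Of the 14 probe sets, 7 were called between 12 and 2 hr (26.7% over the array), 8 between 24 and 2 hr (29.2%), 4 between 12 and 4 hr (22.9%) and 2 between 24 and 4 hr (28.5%), all lower at the later time. Counted by gene on the brightest probe set, these were 4, 5, 3 and 2 of 9. The 2 between 24 and 4 hr, a smaller share than over the array, were Fzd2 (log2 difference -1.11, SE 0.14) and Fzd6 (-1.36, SE 0.10). For Fzd6 the order was 4, 2, 0, 12 and 24 hr, with the steps between 2 and 0 hr and between 12 and 24 hr called. For Sfrp1 the step between 4 and 12 hr, and for Sfrp2 that between 2 and 24 hr, was the only one called between neighbours. For Fzd1 it was that between 24 and 0 hr, and for Fzd2, Fzd3, Fzd8 and Frzb no neighbours in the order were separated.

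The genes whose profiles were most like those of the 3 members with the widest range of means are given as a description over 10 arrays, which share the same 5 time points. For Fzd4 they were Tmem140 (Pearson r 0.988), Fgl2 (0.985) and Slc1a1 (0.983), with Tmem140 at a mean of 5.39 at 4 hr, against 7.17 at 0 hr. For Fzd6 they were the kinase gene Jak2 (0.996), Ssr1 (0.987) and Tro (0.985). Jak2 had means of 7.01, 7.37, 7.72, 6.70 and 6.08 at 0, 2, 4, 12 and 24 hr. For Sfrp2 they were Zfp110 (0.973), Slc1a1 on another probe set (0.966) and Klhdc8b (0.965).

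Other genes of the pathway are grouped by role, with 1 probe set per gene. Their counts stand beside 8.61%, 11.9%, 8.94% and 9.29% of all probe sets called higher and 8.88%, 11.9%, 10% and 10.9% called lower at 2, 4, 12 and 24 hr, and their medians beside array medians of -0.0030, -0.021, 0.018 and 0.026. Of the Frizzled family genes outside the 10, 5 of 8 had a probe set (Fzd5, Sfrp4, Sfrp5, Smo and Mfrp), and none was called against 0 hr at any time. Smo, the Frizzled-like transducer of Hedgehog signaling, was bright (mean log2 value 10.07) and had changes between 0.06 and 0.16. Their median log2 change was -0.086, -0.086, 0.067 and 0.0009 at the 4 times.

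Of 15 genes for Wnt ligands and their secretion, 3, 3, 3 and 1 rose at the 4 times, and 1 fell, at 24 hr. Wnt4 rose by 3.01 on the log2 scale at 4 hr (SE 0.23) and was called at 2 and 12 hr as well (1.38 and 1.95). Wnt2 rose by 2.26 at 4 hr (SE 0.16), and Wnt7a was called at the late times only, with 1.02 at 12 hr and 2.23 at 24 hr (SE 0.27). The list's median log2 change was -0.014, -0.080, 0.18 and 0.18 at the 4 times.

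Among 12 co-receptors and partners of Frizzled, 2, 4, 2 and 2 genes were higher and 1, 2, 1 and 2 lower at 2, 4, 12 and 24 hr, with medians of -0.053, -0.068, 0.090 and -0.088. Beside Ndp, Sdc4, a heparan sulfate proteoglycan of the cell surface, was higher by 1.32 at 4 hr (SE 0.12), and Adgra2, an adhesion receptor that helps Wnt7a signaling, by 1.24 at 4 hr (SE 0.29). Among 8 other secreted Wnt inhibitors, 1, 1, 3 and 4 fell at the 4 times and 1 rose, at 24 hr, with medians of 0.020, -0.12, -0.063 and -0.32. Sostdc1 fell by 2.80 on the log2 scale at 24 hr (SE 0.37), Apcdd1 by 1.70 at 12 hr (SE 0.27), and Wif1, among the dimmest 1 in 3 probe sets, by 0.91 at 4 hr (SE 0.18).

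Of 9 genes of Frizzled turnover and R-spondin signaling, 2, 2, 2 and 3 fell at the 4 times and 1 rose, at 4 hr, with medians of -0.15, -0.14, -0.027 and -0.029. Lgr4, a receptor of R-spondins, fell by 2.03 at 24 hr (SE 0.13) and was called lower at all 4 times. Znrf3, the ubiquitin ligase that removes Frizzled receptors from the surface, was also lower at all 4 times, by 0.90 on the log2 scale at 4 hr (log2 fold change -0.90, SE 0.16). Lgr5, also dim, was higher by 0.84 at 4 hr (SE 0.17).

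Of 20 genes of Dishevelled and the destruction complex, 2, 4, 1 and 2 rose and 2, 1, 0 and 0 fell at the 4 times, with medians of 0.11, 0.039, 0.022 and -0.060, so that 4, 5, 1 and 2 of 20 were called, near or under the 17.5%, 23.8%, 19.0% and 20.2% of the whole array. Apc2 had a log2 fold change of -1.42 at 4 hr and 1.16 at 24 hr (SE 0.18), and Axin1, a scaffold of the complex, 0.72 at 4 hr (SE 0.11). Axin2, itself a widely used target of beta-catenin, was called only at 24 hr (0.67, SE 0.18). Of the 3 Dishevelled genes, Dvl1, Dvl2 and Dvl3, none was called.

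Of 16 TCF/LEF factors and cofactors, 1, 5, 2 and 1 rose and 2, 2, 3 and 3 fell, with medians of 0.059, 0.13, -0.068 and -0.012. Tcf7l2, a DNA-binding partner of beta-catenin, was higher by 0.78 at 4 hr and had a log2 fold change of -1.14 at 12 hr (SE 0.23). The corepressor Tle3 was lower at all 4 times (-0.98 at 12 hr, SE 0.15) and its relative Tle4 higher at all 4 (0.95 at 4 hr, SE 0.092). Of 19 planar cell polarity genes, 1, 4, 4 and 5 rose and 5, 5, 2 and 3 fell, with medians of -0.093, -0.13, -0.12 and 0.082. The 6, 9, 6 and 8 of 19 called stand beside the same 17.5%, 23.8%, 19.0% and 20.2%. Dact2, a Dishevelled-binding protein, had a log2 fold change of -1.02 at 2 hr and 1.81 at 24 hr (SE 0.091). Prickle1, a core polarity protein, had -0.79 at 4 hr and 0.91 at 24 hr (SE 0.10), and the cadherin Celsr3 had 1.34 at 24 hr (SE 0.28).

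**Figure D5:**
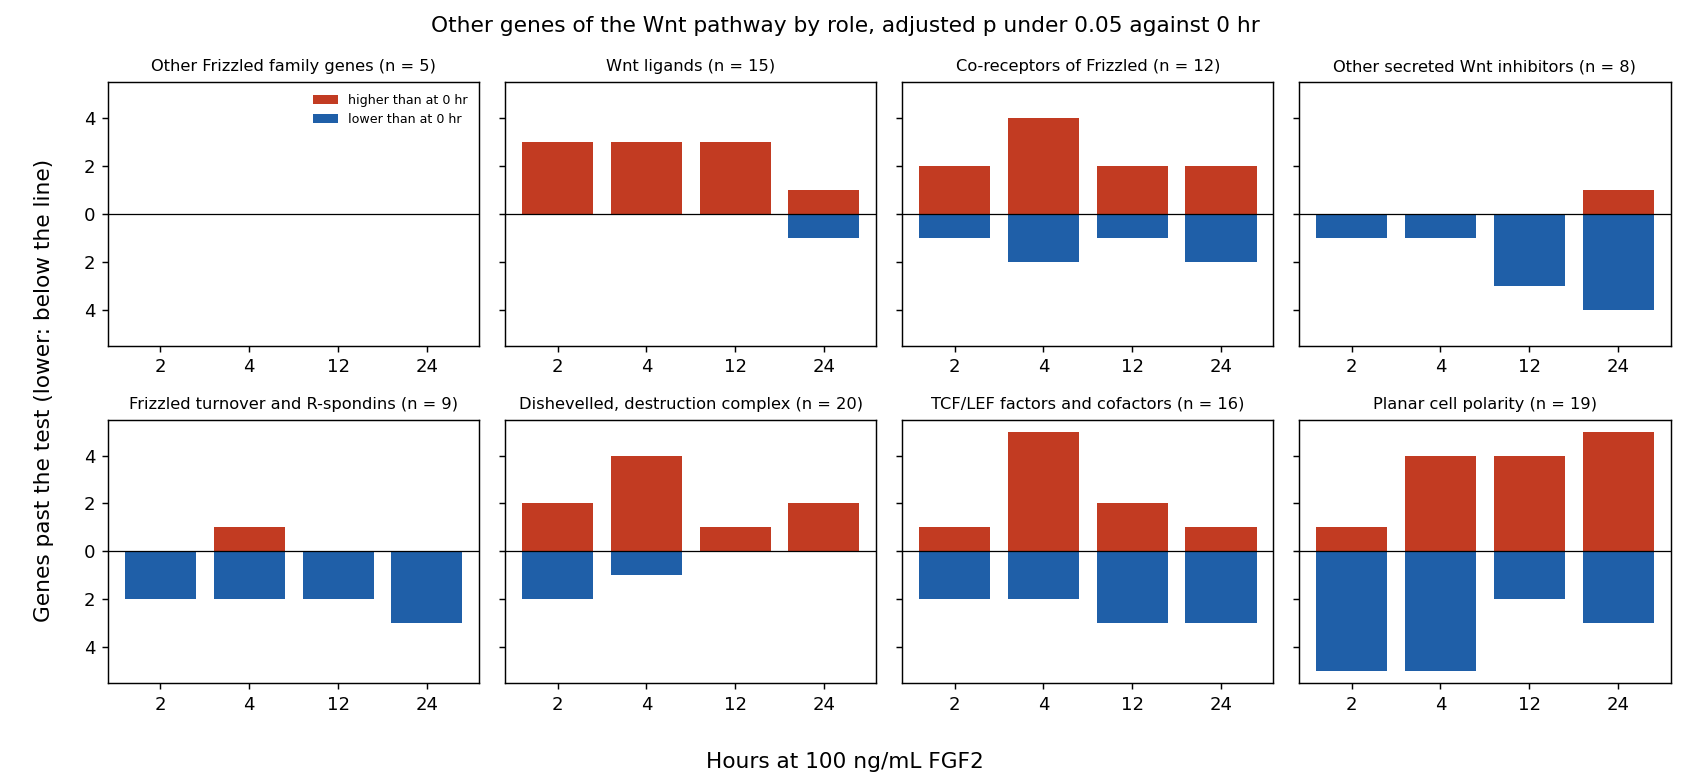
Number of genes with an adjusted p under 0.05 against 0 hr (y axis), higher above the line in red and lower below it in blue, at 2, 4, 12 and 24 hr (x axis) for 8 groups of Wnt pathway genes; n is the number of genes with a probe set. The group of 5 other Frizzled family genes has no bars, and the highest count in 1 direction is 5.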

How the data were processed

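Total RNA of 10 samples of rat lens explants, amplified from 50 ng, was hybridized to Affymetrix rat arrays. The authors deposited 1 table of robust multichip average (RMA) intensity values, normalized across arrays, on a linear scale; the tool's version is not given in the sources used here. The methods and the array names give different array types. The intensities were converted to log2 with no further scaling, 57 array controls were set apart, and 31042 probe sets were fitted with limma 3.58.1 in R 4.3.3, with 1 mean per time point over all 10 arrays, 5 residual degrees of freedom and Benjamini-Hochberg adjustment over all probe sets for each comparison. The fit was tested on simulated data. The platform annotation gave 1 symbol for 20826 probe sets, several for 436 and none for 9780.

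Named genes were all members and, for each pathway list, up to 3 genes with the largest called change against 0 hr, and, for the 3 members with the widest range of means, the 3 genes with the highest Pearson r; Lrp5, Lrp6, Tspan12, Smo, Vwf, Kdr, Pecam1, Tie1 and the 3 Dishevelled genes were named after their values were seen. Members and lists were chosen with earlier results of these data known. Promoter sequences were RefSeq's (GRCr8). Replicates came from different cultures, and with 2 arrays per time their number limits the precision. Alternatives changed the variance prior, the samples in the fit, the normalization, a pseudocount of 16, the filter on dim probe sets, a fold change of at least 1.25, an unadjusted test, the replicate block, the mean of a gene's probe sets and each array left out. The unadjusted test stood in for the methods' analysis of variance. For each comparison it was an ordinary test of only the arrays compared, at a P under 0.05. Array quality weights, and leaving out all arrays of 2 and 4 hr, were chosen after seeing the data. Python 3.11.15 and matplotlib 3.10.9 drew the figures.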

Additional observations from a re-analysis of the deposited data

Results flagged for a closer look

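Steps between time points under the higher dose, each tested as a difference itself, stood out for 5 genes. Between 4 and 2 hr the log2 difference was -0.96 for Fzd4 and -0.72 for Sfrp2. Between 24 and 12 hr it was -0.54 for Fzd6 and 0.71 for Sfrp1. Between the late and the early phase it was -0.61 for Fzd2, -0.34 for Fzd4, -0.95 for Fzd6, -0.47 for Sfrp1 and -0.32 for Sfrp2. Against 4 hr alone, Fzd4 and Sfrp2 were called at neither late time, and Sfrp1 at 12 hr only (brightest probe sets).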

How the results depend on the processing

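Of the 98 changes of single probe sets (14 probe sets in 7 comparisons), 38 were called. Of their 726 alternatives 661 kept the call, 65 lost it and 0 reversed; of 1122 alternatives of the changes not called, 56 gained a call and 19 changed sign, 0 of those past the threshold. In a fit of only the groups compared, the number of member probe sets called became 2 at 2 hr, 0 for 4 hr against 2 hr and 5 for 24 hr against 12 hr. Under the unadjusted test it became 4 at 4 hr and 5 for 24 hr against 12 hr. It became 1 for 4 hr against 2 hr with array quality weights, and 5 for 24 hr against 12 hr without the 2 and 4 hr arrays. With each array left out in turn it ran from 2 to 8 at 2 hr, 6 to 8 at 4 hr, 6 to 8 at 12 hr, 4 to 6 at 24 hr, 1 to 4 for 4 hr against 2 hr, 0 to 4 for 24 hr against 12 hr and 7 to 9 for the late against the early phase. Over all probe sets the count without 1 array fell as low as 1928 of 5427 at 2 hr, 3973 of 7385 at 4 hr, 2879 of 5886 at 12 hr, 3029 of 6264 at 24 hr, 627 of 1159 for 4 hr against 2 hr and 180 of 1348 for 24 hr against 12 hr. It was 9205, 9031 and 9845 at 12 hr in the fit of only the groups, the unadjusted test and array weights. For 4 hr against 2 hr it was 12, 2351 and 447 in the same order. For 24 hr against 12 hr it was 4550 under the unadjusted test, 2864 with array weights and 2938 without the 2 and 4 hr arrays.

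Replicate numbers did not pair the samples over all 5 times. Same-numbered arrays deviated together between 2 and 4 hr (r 0.33), a pairing that the main fit leaves out. Other pairs of times had r between -0.15 and -0.0030. With the replicate block, 4 member probe sets were called at 2 hr (Fzd2 lost), 8 at 4 hr, 8 at 12 hr (Fzd8 gained), 5 at 24 hr, 2 for 4 hr against 2 hr, 3 for 24 hr against 12 hr and 8 for the late against the early phase.

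Some changes that were not called turned sign with 1 array left out, and their lowest and highest values with each array left out in turn follow. Against 0 hr these were Sfrp1 1382878_at at 4 hr (-0.014 to 0.14), Sfrp1 at 24 hr (-0.16 to 0.0032), and Frzb at 12 hr (-0.0030 to 0.096) and 24 hr (-0.023 to 0.46). For 4 hr against 2 hr they were Fzd3 (-0.095 to 0.19), Frzb (-0.31 to 0.023) and Frzb 1375961_at (-0.44 to 0.013). For 24 hr against 12 hr they were Fzd1 (-0.076 to 0.039), Fzd3 (-0.037 to 0.20), Fzd4 1369468_at (-0.081 to 0.34), Sfrp2 1396614_at (-0.18 to 0.42), Frzb (-0.069 to 0.41) and Frzb 1375961_at (-0.041 to 0.027, and 0.012 under median centring). For the late against the early phase they were Fzd8 (-0.34 to 0.018), Sfrp1 1383266_at (-0.31 to 0.068) and Frzb (-0.19 to 0.051). The cause was not tested.

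The design had 2 arrays per time, 3 of the 14 probe sets near the lower end of the signal, and no same-hour explants at the lower dose. Small changes of Frzb, and of the dim Fzd4 probe set against 0 hr, could have been missed. That Fzd4 probe set was called between the late and the early phase (log2 difference -0.42).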
